A study of Homo sapiens with 4 samples.

Results

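The 10 genes described here encode chemokines and inflammatory cytokines. They are CXCL1, CXCL2, CXCL3, CXCL8, CCL20, CCL2, IL6, IL11, LIF and IL1A, chosen by gene symbol, and all 10 were found among the 58233 genes of the deposited count table. They were measured in MIA PaCa-2 and PANC-1, which are established human pancreatic cancer cell lines. Poly(A) RNA was sequenced from 4 libraries, 1 per condition. MIA PaCa-2 cells received 35 µM cannabichromene (CBC, a cannabinoid of the hemp plant) and PANC-1 cells received 30 µM, both for 24 h. Each line had 1 control library, labelled PBS, whereas the methods name acetonitrile as the solvent of CBC and speak of a vehicle control, so the content of the control is not certain. The 2 lines differ in dose, and 1 library per condition leaves the differences within a line without replicates.

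Chemokines are small secreted proteins that guide the movement of white blood cells. CXCL1, CXCL2, CXCL3 and CXCL8 bind the receptor CXCR2 and attract neutrophils, CCL2 binds CCR2 and attracts monocytes, and CCL20 binds CCR6. IL6, IL11 and LIF are cytokines that signal through the shared receptor subunit gp130, and IL1A is an alarm cytokine of the IL-1 family that is released from damaged cells. Many of these genes are switched on by the transcription factor NF-kB, and tumour cells of the pancreas are known to secrete several of them.

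The 4 CXC members lie in 1 cluster on chromosome 4 of GRCh38. Promoter sequences are shown for these 4 genes because CXCL2, CXCL3 and CXCL8 passed the test over both lines and CXCL1 did not. They come from RefSeq (GRCh38.p14) and cover 150 bases before the transcription start, written 5′ to 3′ on the strand of the gene. Capitals mark matches to an NF-kB motif (GGNNTTTCC), an AP-1 motif (TGANTCA) or a TATA box (TATAAA), each searched on both strands, and no match in these windows overlapped another.
CXCL1, chr4:73869243-73869392, plus strand: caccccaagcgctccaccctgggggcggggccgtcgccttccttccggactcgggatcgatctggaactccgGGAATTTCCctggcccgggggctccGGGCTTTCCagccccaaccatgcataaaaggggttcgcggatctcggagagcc
CXCL2, chr4:74099196-74099345, minus strand: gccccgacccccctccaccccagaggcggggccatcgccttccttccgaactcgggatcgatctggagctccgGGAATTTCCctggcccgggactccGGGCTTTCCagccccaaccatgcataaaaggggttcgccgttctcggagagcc
CXCL3, chr4:74038690-74038839, minus strand: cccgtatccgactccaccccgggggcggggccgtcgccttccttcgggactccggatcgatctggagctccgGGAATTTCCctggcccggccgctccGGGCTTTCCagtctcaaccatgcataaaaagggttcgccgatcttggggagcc
CXCL8, chr4:73740419-73740568, plus strand: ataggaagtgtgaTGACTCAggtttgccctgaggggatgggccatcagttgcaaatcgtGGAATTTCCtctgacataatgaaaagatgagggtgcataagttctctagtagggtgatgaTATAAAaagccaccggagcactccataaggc

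CXCL1, CXCL2 and CXCL3 each held a pair of NF-kB matches, GGAATTTCC and GGGCTTTCC, in nearly the same place. The first began 78 bases before the start in CXCL1 and CXCL3 and 77 bases before it in CXCL2, and the second began 53 bases before it in all 3 genes. CXCL8 held 1 NF-kB match, 91 bases before the start, with an AP-1 match at 137 bases and a TATA box at 31 bases. The table held promoters for 8 of the 10 members, and CCL2 and LIF had no entry. In the full window, from 250 bases before to 50 bases after the start, the NF-kB motif was present in 6 of these 8 genes. The AP-1 motif was present in 3 (CXCL8, IL11 and IL1A) and the letters TATAAA in 3 (CXCL8, CCL20 and IL1A). These letters began 31 bases before the start in CXCL8 and 29 in CCL20. In IL1A they began 239 bases before it, in the first of its 2 promoter entries, away from the place of a TATA box in the other genes. Among all 35116 promoters of the table, 6.26% held the NF-kB motif, 7.71% the AP-1 motif and 11.5% the TATA box. A motif of ATF4 and C/EBP proteins (TGATGNAA), present in 3.62% of promoters, was found in 0 of the 8. A match is a description of the sequence and not of binding, and its part in the members' values was not tested.

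IL6, IL1A, CCL20, CCL2 and CXCL3 were almost unread in at least 1 line. For CXCL3 that line was PANC-1, with 1 and 7 counts in control and CBC-treated cells. Levels are given as CPM, counts scaled to a common library size, with library sizes adjusted by the trimmed mean of M-values (TMM). The libraries held 21742775 to 27903667 counts, so a count of 0 allows a level of up to 3 counts, or 0.11 to 0.135 CPM. IL6 had 0 counts in both MIA PaCa-2 libraries and in the PANC-1 control, and 1 count in CBC-treated PANC-1 cells. IL1A had 0, 0, 0 and 2 counts in the same order. Neither gene exceeded the limit of 3 counts in any library, so no direction can be given for IL6 or IL1A in either line. CCL20 had 0 and 1 counts in control and CBC-treated MIA PaCa-2 cells, and 2 and 6 counts in PANC-1 cells. Its count ratio in PANC-1 cells was 2.5 with a counting interval from 0.446 to 25.3, which includes both directions. CCL2 was read in PANC-1 cells (518 and 177 counts) but had 0 and 1 counts in MIA PaCa-2. In the controls the CCL2 ratio of PANC-1 to MIA PaCa-2 was 169 with 3 counts put in place of the 0. The counting interval of this ratio, from the counts as they are, began at 137.

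**Figure D1:**
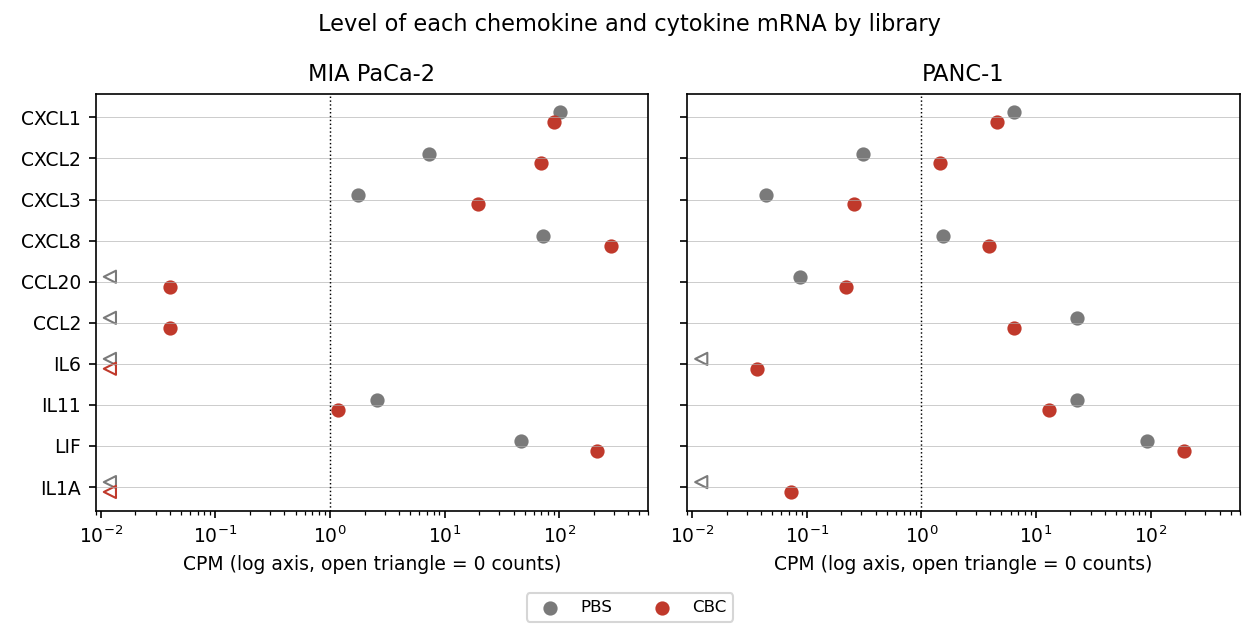
Level of the 10 genes in CPM (log axis) in control (PBS, grey) and CBC-treated (red) cells, 1 library per point. The open triangle marks 0 counts and the dotted line 1 CPM. CXCL2, CXCL8 and LIF have the red point to the right of the grey one in both panels. So do CXCL3 and CCL20, whose few counts in PANC-1, and for CCL20 also in MIA PaCa-2, give no direction, and IL6, IL1A and CCL20 stayed below 1 CPM in all libraries.

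Levels of different genes were compared per kilobase of exon, in CPM per kb, with exact Poisson intervals that cover counting error only. Exon length was that of all annotated exons of a gene together, and the order depends on this choice. For CCL2 it was 1935 bases, against 741 in its main (canonical) transcript, and for CXCL2 1398 against 1115, whereas LIF had 3871 in both. The lengths of CXCL3 were 2219 and 1075 bases, and those of CXCL8 2588 and 1642. The ranks and overlaps that involve CCL2, CXCL2, CXCL3 or CXCL8 are therefore not settled by the intervals. In control MIA PaCa-2 cells CXCL1 was highest (74.2 CPM per kb, 71.2 to 77.4), followed by CXCL8 (26.7 to 29.4), LIF (12.1) and CXCL2 (5.18). IL11 (0.957) and CXCL3 (0.79) came next and could not be told apart, since their intervals overlapped. After CBC treatment the order was CXCL8 (110.0 CPM per kb), CXCL1 (65.7), LIF (55.4), CXCL2 (49.5) and CXCL3 (8.78), and none of the neighbouring pairs among these overlapped. In control PANC-1 cells LIF was highest (24.3 CPM per kb), followed by CCL2 (11.8), IL11 (8.47) and CXCL1 (4.68), and CXCL8 (0.595) and CXCL2 (0.22) overlapped. After CBC treatment LIF (50.5 CPM per kb) and IL11 (4.84) led in PANC-1 cells, and CXCL1 (3.39) and CCL2 (3.35) overlapped. CXCL8 (1.51) and CXCL2 (1.05) also overlapped. Between the lines, each of the 4 CXC members was higher in the MIA PaCa-2 control than in that of PANC-1. In the controls the ratio of MIA PaCa-2 to PANC-1 was 15.9 (13.4 to 18.9) for CXCL1 and 47.1 (33.7 to 67.9) for CXCL8. LIF went the other way, at 0.498 (0.462 to 0.537), and after CBC treatment the ratio was 1.1 (1.05 to 1.14).

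Within each line, genes with 1 CPM or more in either library were assessed, and a gene was called higher or lower past a log2 fold change of 1, the threshold used by the study. In MIA PaCa-2 cells 6 of the 10 members reached 1 CPM, and 4 were higher after CBC treatment (CXCL2, CXCL3, CXCL8 and LIF) and 1 was lower (IL11). Of all 14001 genes assessed in this line, 11.5% were higher and 8.97% lower. In PANC-1, again 6 members reached 1 CPM, and 3 were higher (CXCL2, CXCL8 and LIF) and 1 was lower (CCL2), against 7.71% higher and 7.03% lower among 14091 genes. In PANC-1, CXCL2 reached 1 CPM only in the CBC library (0.308 and 1.46 CPM), so the filter itself fixed that it was counted as higher. The count of 3 fell to 1 when 5 CPM was required, when the deposited CPM with a pseudocount of 1 was used, or when the counting interval had to lie wholly past 1. The median log2 fold change of the assessed members was 2.08 in MIA PaCa-2, against -0.01 over all genes (0.58 over all 10 members without the filter), and 0.3 in PANC-1 cells, against 0.02. Since the PANC-1 median covers 3 genes above 1 and 3 below 0, its value turned to -0.63 when 5 CPM was required.

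Both lines were also tested together with edgeR's quasi-likelihood test on the counts. The cell line was a blocking factor and 1 residual degree of freedom was left. Of the 16381 genes tested, 4.71% passed an adjusted p of 0.05 in either direction. Of the 10 members, 7 could be tested and 4 passed, namely CXCL2, CXCL3, CXCL8 and LIF, all of them higher after CBC treatment. CXCL1, CCL2 and IL11 did not pass. In this test 3428 of the 16381 genes had an unadjusted p under 0.05. Without the block, 0 of the 7 passed in edgeR, and 1 had an unadjusted p under 0.05. Of all 16381 genes, 0 passed without the block and 354 had an unadjusted p under 0.05, so the 0 is not particular to the members. DESeq2 with the block also called 4, and it called 1370 of 13740 genes, a larger share than edgeR.

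CXCL2, a neutrophil chemokine, had 161 and 1710 counts in control and CBC-treated MIA PaCa-2 cells and 7 and 40 counts in PANC-1 cells. It was higher after CBC treatment in both lines. The log2 fold change was 3.24 in MIA PaCa-2 (count ratio 9.55, interval 8.12 to 11.3) and 1.99 in PANC-1 cells (count ratio 4.75, interval 2.11 to 12.6). Over both lines CXCL2 rose by 2.99 ± 0.38 (SE) on the log2 scale, with an adjusted p of 0.0122 in edgeR's quasi-likelihood test. The 7 counts of the PANC-1 control make the PANC-1 value the less certain one.

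CXCL3, which binds the same receptor, had 39 and 482 counts in MIA PaCa-2 and 1 and 7 counts in PANC-1 cells. The log2 fold change in MIA PaCa-2 was 3.41 (count ratio 11.1, interval 8.01 to 15.8). In PANC-1 cells the count ratio was 5.82 with an interval from 0.748 to 263, and the gene stayed below 1 CPM, so no direction is given there. Over both lines CXCL3 rose by 3.36 ± 0.55 (SE) on the log2 scale (edgeR quasi-likelihood test, adjusted p = 0.0213), and this value rests almost wholly on the counts of MIA PaCa-2 cells.

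CXCL8 (interleukin 8), the best known neutrophil attractant, had 1613 and 7042 counts in MIA PaCa-2 and 35 and 107 counts in PANC-1 cells. It was higher after CBC treatment in both lines. The log2 fold change was 1.97 in MIA PaCa-2 (count ratio 3.93, interval 3.72 to 4.15) and 1.3 in PANC-1 cells (count ratio 2.54, interval 1.72 to 3.84). Over both lines CXCL8 rose by 1.73 ± 0.26 (SE) on the log2 scale (edgeR quasi-likelihood test, adjusted p = 0.0168).

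CXCL1, another neutrophil chemokine, had 2248 and 2213 counts in MIA PaCa-2 and 145 and 126 counts in PANC-1 cells. Its log2 fold changes were -0.18 and -0.46, with count ratios of 0.885 (interval 0.834 to 0.939) and 0.723 (interval 0.565 to 0.924). Neither passed the threshold of 1, and over both lines the change was -0.3 ± 0.23 (SE; edgeR quasi-likelihood test, adjusted p = 0.514). Of the 4 members that bind CXCR2, CXCL1 was the one that passed neither the threshold nor the test.

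**Figure D2:**
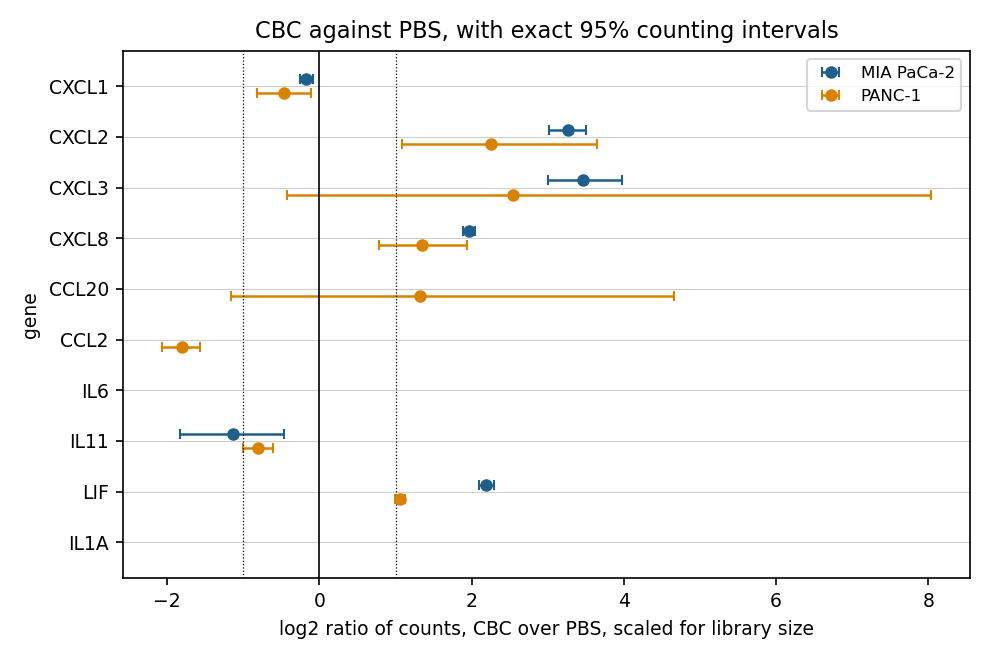
Log2 ratio of the counts, CBC over PBS, scaled for library size, for each member and line, with exact 95% counting intervals. Dotted lines mark the threshold of 1 in either direction, and members with at most 3 counts in both libraries of a line have no point. CXCL2, CXCL8 and LIF lay above 0 in both lines, and the CXCL3 and CCL20 intervals in PANC-1 cells included 0.

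The make-up of the CXCL1, CXCL2 and CXCL3 counts was compared between libraries, a comparison chosen after the values were seen. In MIA PaCa-2 cells CXCL1 gave 91.8% of the counts of these 3 genes in the control (exact binomial interval 90.7 to 92.9) and 50.2% after CBC treatment (48.8 to 51.7). The share of CXCL2 went from 6.58% to 38.8% and that of CXCL3 from 1.59% to 10.9%. In PANC-1 cells CXCL1 gave 94.8% (90.0 to 97.7) and 72.8% (65.6 to 79.3). These shares do not depend on how the libraries were scaled. The summed counts of the 3 genes went from 2448 to 4405 in MIA PaCa-2, a log2 ratio of 0.69 (0.62 to 0.77), and from 153 to 173 in PANC-1 cells, a log2 ratio of -0.09 (-0.41 to 0.24), which includes no change.

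The 3 genes are close relatives, which bears on how their reads were assigned. Their coding sequences share 93.5% of bases between CXCL1 and CXCL2, 90.7% between CXCL1 and CXCL3 and 94.4% between CXCL2 and CXCL3. The longest run of identical bases between their transcripts was 97, between CXCL2 and CXCL3, so no stretch of 100 bases, the length of 1 read, was the same in any pair. Reads shortened by trimming could match more than 1 of the genes, and reads with mismatches may still have been placed on a relative.

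**Figure D3:**
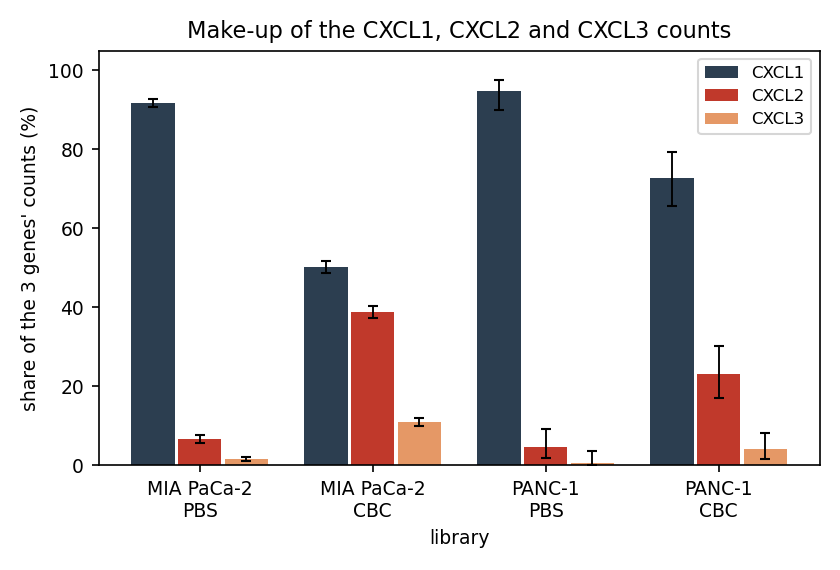
Share of the summed counts of CXCL1, CXCL2 and CXCL3 that each gene gave in each library (%), with exact 95% binomial intervals, 1 library per condition. CXCL1 gave 91.8% and 94.8% in the controls, and 50.2% and 72.8% after CBC treatment.

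The cluster that holds CXCL8, CXCL1, CXCL3 and CXCL2 spans 359 kb and contains 16 genes of the count table, 9 of them protein-coding. The 5 coding genes that reached 1 CPM in a library were the 4 members and CXCL5, another ligand of CXCR2. CXCL5 had 815 and 2362 counts in MIA PaCa-2, which is 1.38 on the log2 scale, and 0 counts in both PANC-1 libraries. It did not pass the test over both lines (edgeR quasi-likelihood test, adjusted p = 0.0859). CXCL6 had 18 and 8 counts in MIA PaCa-2 and 8 and 2 in PANC-1 cells, and PF4, PF4V1 and PPBP had at most 6 counts in any library. In MIA PaCa-2 cells the genes at the 2 ends of the cluster, CXCL8 and CXCL2, and CXCL5 and CXCL3 between them were higher after CBC treatment, whereas CXCL1, 128.9 kb from CXCL8, was not.

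**Figure D4:**
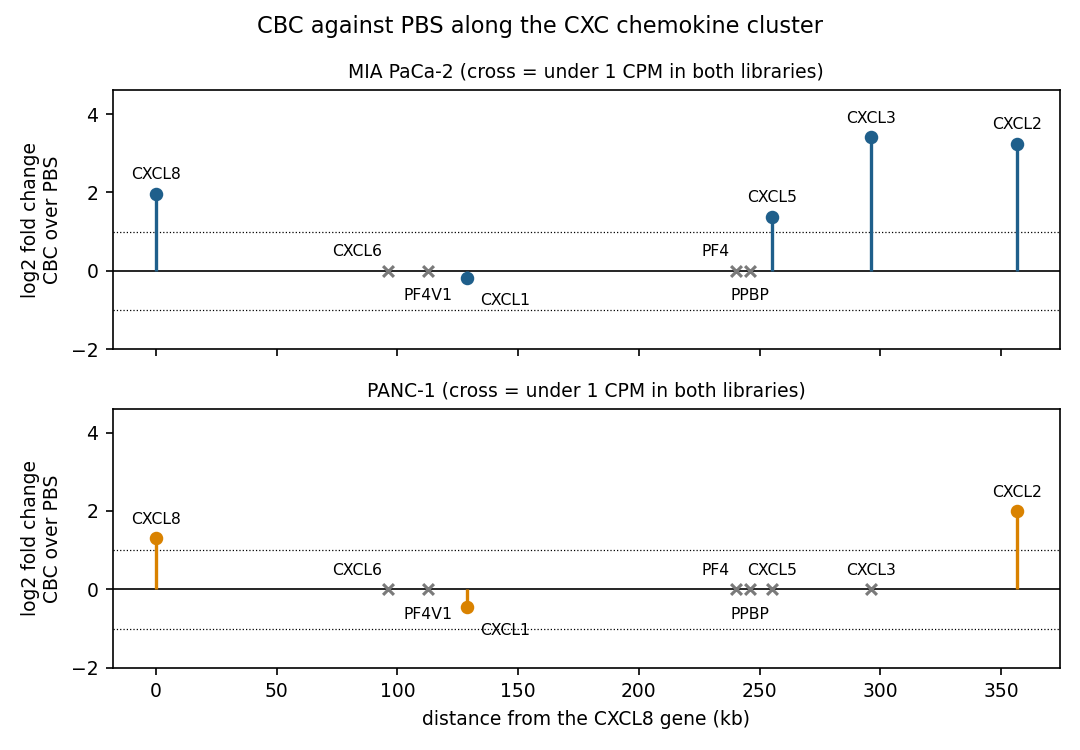
Log2 fold change, CBC over PBS, of the protein-coding genes of the CXC cluster against their distance from CXCL8 in kb, by line. Crosses mark genes below 1 CPM in both libraries of the line, and dotted lines mark 1 in either direction. CXCL8 and CXCL2, 356.5 kb apart, lay above 1 in both lines. In PANC-1, CXCL2 reached 1 CPM only in the CBC library, so the filter fixed its direction in the figure. With the deposited CPM and a pseudocount of 1, the PANC-1 values were 0.95 for CXCL8 and 0.91 for CXCL2, below the threshold.

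LIF, a cytokine that signals through gp130 and the LIF receptor, had 1041 and 5300 counts in MIA PaCa-2 and 2136 and 5347 counts in PANC-1 cells. It was higher after CBC treatment in both lines. The log2 fold change was 2.19 in MIA PaCa-2 (count ratio 4.58, interval 4.28 to 4.9) and 1.06 in PANC-1 cells (count ratio 2.08, interval 1.98 to 2.19), just past the threshold. Over both lines LIF rose by 1.63 ± 0.3 (SE) on the log2 scale (edgeR quasi-likelihood test, adjusted p = 0.0284). IL11, a relative of LIF that also uses gp130, had 57 and 29 counts in MIA PaCa-2 and 516 and 354 counts in PANC-1 cells. Its log2 fold change was -1.08 in MIA PaCa-2 (count ratio 0.457, interval 0.282 to 0.727) and -0.8 in PANC-1 cells (count ratio 0.571, interval 0.497 to 0.655). The MIA PaCa-2 value was -0.71, inside the threshold, with the deposited CPM and a pseudocount of 1. IL11 did not pass over both lines (edgeR quasi-likelihood test, adjusted p = 0.178). The gp130 ligands LIF and IL11 thus had values of opposite sign in each line.

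CCL2, a monocyte chemokine, had 518 and 177 counts in PANC-1 cells, where it was lower after CBC treatment with a log2 fold change of -1.8 (count ratio 0.284, interval 0.238 to 0.338). With 0 and 1 counts in MIA PaCa-2, the test over both lines rested on PANC-1 and was not passed (edgeR quasi-likelihood test, adjusted p = 0.18). It was passed only when every gene with a count was tested (adjusted p = 0.0399 in the same test, range over the alternatives 0.0399 to 1.0).

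The 3′ UTRs of all 10 members held the pentamer ATTTA, which 67.5% of 19550 coding genes also hold, with 10 copies in CXCL2, 9 in CXCL8 and IL11, 7 in CXCL3 and LIF, 6 in CXCL1 and IL6, 5 in IL1A, 3 in CCL20 and 1 in CCL2, against a median of 2 per gene. Per kilobase of 3′ UTR, LIF had 2.19 copies and CXCL2 had 13.97. This count was added after the values were seen. The nonamer ATTTATTTA, found in 7.07% of genes, was present in CXCL1, CXCL2, CXCL8 and IL11. Such AU-rich letters are known to bind factors that shorten the life of cytokine mRNAs, and their part in the members' values was not tested.

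The other genes of these pathways were taken from 7 lists. In the list of other ligands 8 of 13 assessed genes were above the threshold and 1 below it in MIA PaCa-2 (median log2 fold change 1.38), and 1 of 11 was higher and 1 lower in PANC-1 cells (median 0.11). In MIA PaCa-2, 4 of the 8 (CCL5, CCL22, IL12A and IL23A) reached 1 CPM only in the CBC library and the lower gene, CNTF, only in the control, so the filter fixed their direction and their place in the median. The same held in MIA PaCa-2 for IL11RA among the receptors, CISH in gp130 signalling, FOSB among the promoter factors and NLRP1. CCL5, a chemokine of T cells and monocytes, had 8 and 367 counts in MIA PaCa-2 and 4 and 26 in PANC-1 cells. Over both lines it rose by 4.35 on the log2 scale (edgeR quasi-likelihood test, adjusted p = 0.0268). The low-count filter of that test kept CCL5 only through the CBC libraries, so its direction there was also fixed by a filter. CSF3, a growth factor of neutrophils, had 459 and 2338 counts in MIA PaCa-2 but had 0 counts in both PANC-1 libraries, so its call over both lines (edgeR quasi-likelihood test, adjusted p = 0.0298) rests on MIA PaCa-2, and DESeq2 did not call it (adjusted p = 0.952, range over the alternatives 1.51e-05 to 1.0). IL23A had 8 and 825 counts and CCL22 had 5 and 248 counts in MIA PaCa-2, and neither exceeded 10 counts in PANC-1 cells.

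Among the receptors of the members, 1 of 7 was higher and 3 lower in MIA PaCa-2 (median log2 fold change -0.63), and 1 of 7 was higher and 1 lower in PANC-1 cells (median -0.2). None of the 7 passed over both lines in edgeR, where 3 had an unadjusted p under 0.05, and DESeq2 called 1. IL11RA, the receptor of IL11, had 89 and 22 counts in MIA PaCa-2 and 385 and 192 in PANC-1 cells. LIFR, the LIF receptor, had 886 and 387 counts in MIA PaCa-2 and 2278 and 2375 in PANC-1 cells. IL1RAP, a subunit of the IL-1 receptor, had 44 and 95 counts in MIA PaCa-2 and 81 and 259 in PANC-1 cells.

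In the list of IL-1 and NF-kB signalling 9 of 22 genes were higher and 0 lower in MIA PaCa-2 (median log2 fold change 0.75), and 1 of 22 was higher and 0 lower in PANC-1 cells (median 0.14). RELB, a subunit of NF-kB, had 326 and 1788 counts in MIA PaCa-2 and 155 and 422 in PANC-1 cells and rose over both lines (edgeR quasi-likelihood test, adjusted p = 0.0322). TNFAIP3, an inhibitor of NF-kB, had 60 and 875 counts in MIA PaCa-2 and 132 and 220 in PANC-1 cells. NFKB2, another subunit, had 1046 and 6649 counts and 1130 and 2175 counts in the same lines. TNFAIP3 and NFKB2 did not pass over both lines in edgeR, and DESeq2 with the block called RELB and NFKB2 of this list.

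In the list of gp130 signalling 1 of 10 genes was higher and 1 lower in MIA PaCa-2 (median log2 fold change -0.15), and 1 of 9 was higher in PANC-1 cells (median 0.09). SOCS1, a feedback inhibitor, had 28 and 387 counts in MIA PaCa-2 and 43 and 164 in PANC-1 cells and passed over both lines (edgeR quasi-likelihood test, adjusted p = 0.0423), but not when TMM was computed before the filter on low counts (0.0508 in the same edgeR test, range over the alternatives 4.32e-07 to 1.0). STAT3, the main transcription factor below gp130, had log2 fold changes of -0.36 and -0.48, and SOCS3 had 0.88 and 0.52. In the list of cytokine mRNA decay 3 of 13 genes were higher in MIA PaCa-2 (median 0.5) and 0 in PANC-1 cells (median -0.09). They were ZFP36, which binds AU-rich letters and went from 135 to 1525 counts, its relative ZFP36L1 (4889 and 14239 counts) and DUSP1 (270 and 1259 counts). None of the 13 passed over both lines in edgeR, where 5 had an unadjusted p under 0.05, and DESeq2 called 2.

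In the list of other promoter factors 12 of 15 genes were higher in MIA PaCa-2 (median log2 fold change 1.99) and 4 of 15 in PANC-1 cells (median 0.45), with 0 lower in either line. 5 of them passed over both lines in edgeR's quasi-likelihood test, all higher. ATF3, a stress-induced factor, had 86 and 3738 counts in MIA PaCa-2 and 89 and 1598 in PANC-1 cells (adjusted p = 0.00449 in edgeR's quasi-likelihood test). CEBPB, a factor of cytokine promoters, had 672 and 7623 counts and 574 and 3663 counts (adjusted p = 0.0062 in the same edgeR test). DDIT3, ATF4 and JUND also passed. In the list of IL-1 processing and release 2 of 6 genes were higher in MIA PaCa-2 (median 0.4) and 3 of 8 in PANC-1 cells (median 0.27), and 0 passed in edgeR, where 3 had an unadjusted p under 0.05, while DESeq2 called 3. NLRP1, a sensor that starts inflammasomes, had 2 and 51 counts in MIA PaCa-2 and 51 and 243 in PANC-1 cells. GSDME, a pore-forming protein, had 220 and 522 counts and 85 and 365 counts, and CASP4, an inflammatory caspase, had 461 and 1011 counts and 368 and 971 counts.

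**Figure D5:**
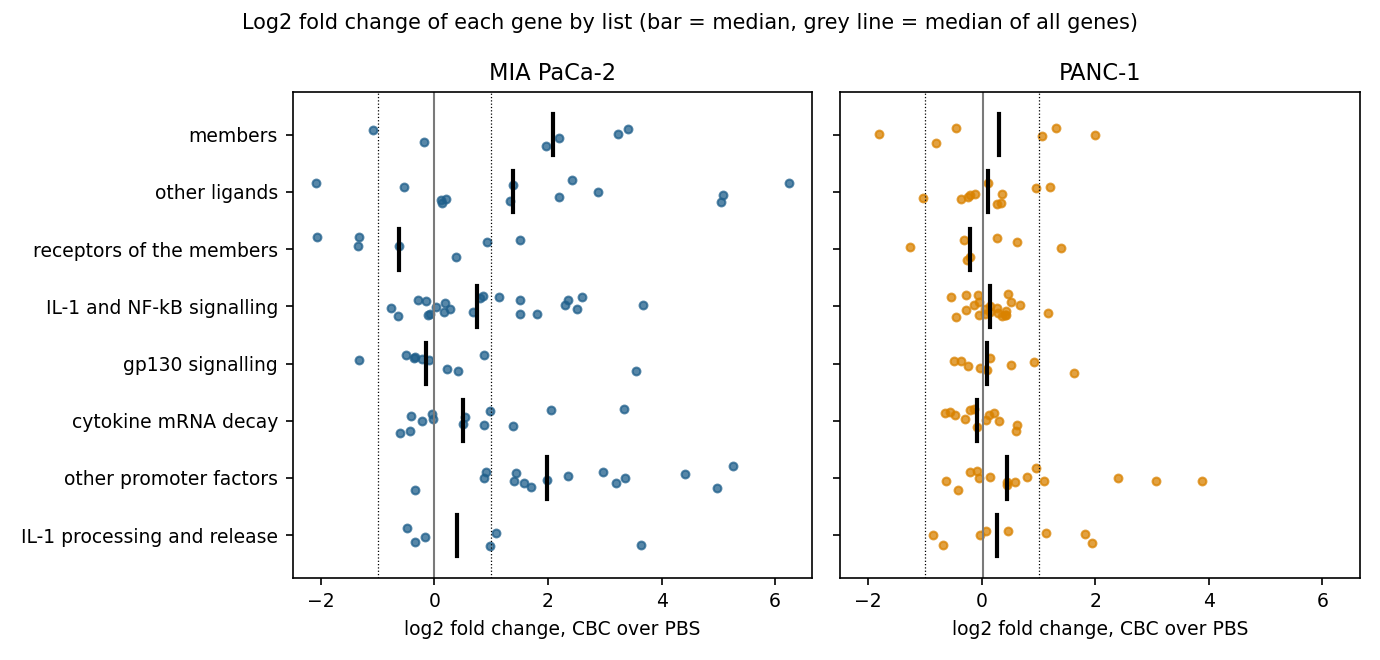
Log2 fold change, CBC over PBS, of each assessed gene of the members and of the 7 other lists, by line. The black bar is the median of the list, the grey line the median of all genes, and the dotted lines mark 1 in either direction. The members and the other promoter factors had medians of 2.08 and 1.99 in MIA PaCa-2 and 0.3 and 0.45 in PANC-1 cells.

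The 3 other genes whose levels were most like the mean profile of the 7 members with 1 CPM in a library were EPB41L4A-AS1, SELENOM and IRF1, at distances of 0.12, 0.14 and 0.17 in log2 CPM over the 4 libraries. IRF1 had 408 and 1236 counts in MIA PaCa-2 and 246 and 444 in PANC-1 cells.

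Markers of other cell types were read in the same libraries, since in bulk RNA fewer cells of a type and less RNA per cell cannot be told apart. PTPRC, CD3E and MS4A1, defining markers of immune cells, were at 0 in all 4 libraries. The 8 immune markers summed to 7.24 and 21.1 CPM in control and CBC-treated MIA PaCa-2 cells and to 2.11 and 1.02 CPM in PANC-1 cells. ITGAM, an integrin of myeloid cells, had 12 and 491 counts in MIA PaCa-2, and its part in the members' values was not tested, and CD14 fell over both lines by 3.3 on the log2 scale (edgeR quasi-likelihood test, adjusted p = 0.0303). The 6 stromal and endothelial markers summed to at most 2.46 CPM, with DCN, LUM and PECAM1 at 0 in all 4 libraries, and the 4 acinar markers to at most 0.044 CPM. CDH5 had 49 and 7 counts in MIA PaCa-2, and PDGFRB had 0 and 15 counts there and 54 and 18 in PANC-1 cells. CDH5 in MIA PaCa-2 and PDGFRB in PANC-1 cells were called lower. Each reached 1 CPM only in the control library of that line, so the filter fixed the direction. The epithelial keratins were high, with 40044 and 30933 counts of KRT8 in MIA PaCa-2 and 13742 and 7540 in PANC-1 cells. The epithelial markers CDH1 and EPCAM were at 0 and at 0 and 1 counts in MIA PaCa-2, and EPCAM had 264 and 250 counts in PANC-1 cells. KRT7 had 2 and 52 counts in MIA PaCa-2, and CDH1 had 32 and 131 counts in PANC-1 cells, the 1 epithelial marker called higher in each line. KRT7 reached 1 CPM in MIA PaCa-2 only in the CBC library, so the filter fixed its direction. The 6 epithelial markers summed to 3480 and 2550 CPM in MIA PaCa-2 and to 2050 and 1210 CPM in PANC-1 cells.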

How the data were processed

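Poly(A) RNA of both lines was sequenced by the authors as paired 100-base reads. Trimming was done with cutadapt 2.7, alignment to GRCh38 with STAR, and counting with HTSeq on the genes of Ensembl release 89. The strand setting is not given in the sources used here. The deposited table holds raw counts. A second deposited value, a signal in CPM on TMM library sizes, equals the CPM computed here from the counts within a relative difference of 6.84e-09.

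Gene lists and members were chosen with earlier results of these data known. Symbols, positions and exon lengths came from GENCODE release 44, and 57392 of 58233 gene identifiers had a symbol. Log2 fold changes used edgeR 4.0.16 (TMM over 4 libraries, prior count 2). Count ratios have exact 95% binomial intervals (scipy 1.17.1), which cover counting error only, and a count of 0 allows 3 counts. The test over both lines was edgeR's quasi-likelihood test, blocked by cell line, and was tested on simulated data. It used Benjamini-Hochberg adjustment on 16381 genes left by filterByExpr. The SE printed with its log2 fold changes is the size of the change divided by the square root of the test's F statistic. That SE is not an error estimated from replicates of the gene alone. Libraries were paired by cell line, and their deviations from the treatment means correlated at 0.923 across genes. The lines are 2 different lines at different doses and not replicates of 1 culture. With the block, the p-values are set against how far the CBC response differed between the lines, and not against a spread between cultures. With 1 residual degree of freedom, edgeR drew the spread of each gene towards that of all genes tested. The p-values thus rest largely on spread shared across genes, and not on the gene's own values alone. TMM for this test was computed after the filter. It had first been run with TMM before the filter. The order was changed after the members' results under that version were seen and several orders had been compared, because filtering first is the usual order in edgeR and had been used for these data before. Alternatives changed the scaling, prior count, filter, block and tool (DESeq2 1.42.0).

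Named genes were the members, 3 genes per list by the largest mean change over both lines, among those with at least 5 CPM in a library, up to 5 genes of a list called over both lines, the genes of the CXC cluster, and the 3 genes most like the members among those with a mean of at least 10 CPM.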

Additional observations from a re-analysis of the deposited data

How the results depend on the processing

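Of the results over the members, the counts of higher members in MIA PaCa-2 cells kept within 1.5 times under every alternative run. In PANC-1 cells the 3 higher members became 1 with the deposited CPM and a pseudocount of 1, with a minimum of 5 CPM, and with the counting interval wholly past 1. The median log2 fold change of the members moved from 2.08 to 0.58 without a filter and to 2.19 with at least 5 CPM in MIA PaCa-2, and from 0.3 to 0.87 and -0.63 in PANC-1 cells, because other members enter or leave. No single result over a member reversed in direction. The number of members called over both lines was 4 as reported and 0 with no replicate block (edgeR, 1 with an unadjusted p under 0.05 of 7 tested). Without the block, 0 of all 16381 genes passed as well. The block was the cell line, which the labels give, and the libraries share no other pairing in the labels.

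The order of TMM and filter was settled after results had been seen. With TMM after the filter 771 genes passed over both lines, with TMM before it 659, and with library sizes also summed after the filter 650. The same 4 members passed under all 3. With TMM before the filter and at least 1 CPM in 2 libraries, 299 genes and 3 members passed, and LIF was lost (adjusted p = 0.06 in edgeR's quasi-likelihood test, against 0.0493 with TMM after the filter and the same minimum; range over its alternatives 1.5e-09 to 1.0). Of 14 genes of all lists that passed, 13 did with TMM before the filter, and SOCS1 did not. With at least 1 CPM in 2 libraries the number of genes passing was 461, with every gene with a count 2063, and with DESeq2 1370. With every gene with a count 5 members passed, CCL2 being added, in either order. With 1 library per condition, depth limits IL6, IL1A, CCL20 and, in PANC-1 cells, CXCL3.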
